A study of Mus musculus with 6 samples.

Results

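The genes followed here, in the bulk RNA of the adult mouse cochlea, build the actin bundle of the stereocilia and the links between them: *Strc*, *Espn*, *Whrn*, *Eps8*, *Eps8l2*, *Triobp*, *Grxcr1*, *Grxcr2*, *Ptprq* and *Adgrv1*. These 10 of the 51802 gene symbols listed were chosen by name, for their known roles in the hair bundle, and the counts and levels of all transcripts of a symbol were summed. Cochlear RNA was sequenced in 3 wildtype and 3 *Pou4f3(Δ/+)* samples, all from mice at 2 months of age labelled C57/BL6J, the wildtype mice being littermates of the others. *Pou4f3(Δ/+)* mice carry, on 1 of their 2 copies of *Pou4f3*, a knock-in deletion that truncates this hair cell transcription factor, and the allele is present in every cell of the animal. The labels number the wildtype samples 3, 4 and 5 and the *Pou4f3(Δ/+)* samples 1, 2 and 3. They do not say whether a sample was a single animal, so the p-values measure the spread between these samples.

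Each sensory hair cell of the cochlea carries a staircase of stereocilia, which are microvillus-like protrusions filled with crosslinked, uniformly polarised actin filaments. Filaments are bundled along the shaft and packed into a dense rootlet at the base, actin regulators at the tips set the height of each row, and extracellular links hold neighbouring stereocilia together so that the bundle moves as a unit. The genes described here are all deafness genes or are needed for a normal bundle in mice, and POU4F3 is a transcription factor on which hair cells depend to mature and survive. Hair cells are a small part of the cochlea. In bulk RNA, fewer hair cells and less RNA per hair cell cannot be told apart, and RNA of other cell types that express the same genes is counted with that of hair cells.

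Of the 10 genes, 9 had enough counts to be tested, and none of the 9 passed edgeR's quasi-likelihood test between the genotypes with Benjamini-Hochberg adjustment over 17136 genes. The log2 fold changes were highest for *Espn*, *Ptprq* (0.29 each) and *Strc* (0.25) and lowest for *Grxcr2* (-0.47), while *Eps8*, *Whrn*, *Eps8l2* and *Triobp* lay between -0.10 and 0.04. The order of the highest and lowest is loose, since leaving out 1 sample moved *Espn* between 0.15 and 0.45, *Ptprq* between 0.035 and 0.69 and *Grxcr2* between -0.62 and -0.20. The 2 most abundant genes were *Triobp* and *Eps8l2*. For *Triobp*, nearly all of the level came from short forms and not from the long forms. In the annotation used (GENCODE M21) the short forms start downstream, next to a CpG-rich promoter. The counted model of the short form Triobp-202 differs from that annotation.

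Start sites were compared because several of these genes make long and short proteins from different promoters. RefSeq promoter sequences were at hand for 7 of the 10 genes, with 10 start sites in all, while *Eps8*, *Grxcr2* and *Ptprq* were not matched. Transcripts were assigned to a start site when their annotated start lay within 500 bases of it. The 250 bases before each start site of *Triobp* and *Espn* are shown, since these genes have several start sites in use to different degrees. They are given 5′ to 3′ on the strand of the gene, from RefSeq on GRCm38.p6, and the capitals mark CG dinucleotides.
Triobp start 1 (long forms), chr15:78947474-78947723, plus strand: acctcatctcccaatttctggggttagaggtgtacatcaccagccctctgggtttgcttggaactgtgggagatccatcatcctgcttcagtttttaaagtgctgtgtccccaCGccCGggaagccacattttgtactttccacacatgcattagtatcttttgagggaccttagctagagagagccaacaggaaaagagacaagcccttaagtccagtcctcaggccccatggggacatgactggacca
Triobp start 2 (short forms), chr15:78982806-78983055, plus strand: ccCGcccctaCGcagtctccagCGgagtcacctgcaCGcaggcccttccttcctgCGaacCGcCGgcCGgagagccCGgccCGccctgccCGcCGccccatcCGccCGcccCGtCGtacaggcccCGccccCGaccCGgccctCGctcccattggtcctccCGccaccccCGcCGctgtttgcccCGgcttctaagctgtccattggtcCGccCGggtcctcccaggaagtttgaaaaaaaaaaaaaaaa
Espn start 1 (the most upstream), chr4:152152390-152152639, minus strand: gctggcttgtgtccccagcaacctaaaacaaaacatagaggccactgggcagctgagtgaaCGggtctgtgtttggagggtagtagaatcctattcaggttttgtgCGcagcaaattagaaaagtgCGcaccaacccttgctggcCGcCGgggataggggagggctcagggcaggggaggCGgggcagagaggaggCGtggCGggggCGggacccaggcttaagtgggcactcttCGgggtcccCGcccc
Espn start 2, chr4:152136326-152136575, minus strand: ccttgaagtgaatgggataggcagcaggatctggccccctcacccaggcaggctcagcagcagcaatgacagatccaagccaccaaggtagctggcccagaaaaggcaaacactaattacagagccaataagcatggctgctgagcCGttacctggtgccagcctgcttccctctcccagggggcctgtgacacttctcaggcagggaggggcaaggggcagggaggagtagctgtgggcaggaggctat
Espn start 3, chr4:152128926-152129175, minus strand: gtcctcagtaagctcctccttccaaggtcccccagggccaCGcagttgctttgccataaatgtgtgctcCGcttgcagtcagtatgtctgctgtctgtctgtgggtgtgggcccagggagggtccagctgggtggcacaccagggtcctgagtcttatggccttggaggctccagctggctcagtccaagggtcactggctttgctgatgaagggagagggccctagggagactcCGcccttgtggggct

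The short-form promoter of *Triobp* held 26 CG dinucleotides in 250 bases, a number reached by 9.59% of 32851 promoter sequences of that length, and the long-form promoter held 2. The 3 *Espn* promoters held 11, 1 and 3 from upstream to downstream, where the median over all promoters was 6. The letters AATTAAT, which lie within the sequence recognised by POU4 factors, were looked for on both strands of the same 250 bases. They were found in 1 of the 10 promoters, that of *Grxcr1*, and in 2.46% of all promoters. The *Grxcr1* promoter is shown because it alone among the 10 holds these letters, with the match (read on the opposite strand as ATTAATT) in capitals.
Grxcr1, chr5:68031585-68031834, plus strand: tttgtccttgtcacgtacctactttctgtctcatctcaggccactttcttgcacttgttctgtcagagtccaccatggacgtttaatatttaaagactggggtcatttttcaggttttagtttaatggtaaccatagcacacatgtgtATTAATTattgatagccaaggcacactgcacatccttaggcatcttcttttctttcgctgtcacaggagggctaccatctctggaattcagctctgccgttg
A match of this kind is a description of the sequence and not a binding site.

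The libraries held 14295069 to 17696784 summed counts each. No gene reached an adjusted p under 0.05 in the gene-level fit (0%), while 1309 of 17136 genes (7.64%) had an unadjusted p under 0.05, and DESeq2 on the same counts called 64 genes (0.373%), none of them among the 10. *Pou4f3* itself had counts of 68, 72 and 88 in wildtype and 66, 97 and 52 in *Pou4f3(Δ/+)* samples (log2 fold change -0.06, SE 0.27), which checks no label, since the counts do not separate the alleles. The hair cell identity of the tissue was checked with 12 markers, all of them detected. Their summed level was 662 to 711 CPM (counts scaled to the library total) in wildtype and 584 to 706 CPM in *Pou4f3(Δ/+)* samples, their median log2 fold change was 0.02, and none of the 12 had an unadjusted p under 0.05. Most of this sum was *Calb2*, with means of 434 CPM in wildtype and 374 CPM in *Pou4f3(Δ/+)* samples after TMM scaling. *Pou4f3(Δ/+)* replicates 1 and 2 stood apart from the other 4 samples in several marker levels. Their summed hair cell markers were 589 and 584 CPM against 662 to 711 CPM, and their summed supporting cell markers 728 and 679 CPM against 832 to 999 CPM. By mean log2 CPM, which weights the markers equally, they did not stand apart in this way. Hair cell markers were at 3.83 and 4.07 against 3.94 to 4.06 and supporting cell markers at 4.55 and 4.95 against 4.69 to 5.38. On this scale, these 2 samples had lower stria vascularis markers (6.57 and 6.29 against 6.83 to 6.996). So were markers of spiral ganglion neurons (6.31 and 6.14 against 6.58 to 6.75) and bone (6.70 and 6.69 against 7.02 to 7.30). Markers of spiral ligament fibrocytes were also lower (8.35 and 8.17 against 8.60 to 8.90). Their red blood cell precursor markers were higher (10.64 and 10.67 against 10.03 to 10.28), and their neutrophil markers did not stand apart. Their B cell markers averaged 5.81 and 6.03 on the log2 CPM scale against 4.56 to 5.19, although the summed level, which the most abundant markers dominate, was highest in wildtype replicate 4 (1772 CPM, against 1057 and 1702 CPM in these 2 samples). Of the markers, 8 of 9 for B cells were higher and 3 of 5 for the stria vascularis and 3 of 6 for bone were lower in *Pou4f3(Δ/+)* at an unadjusted p under 0.05. The part of these shifts in the results was not tested.

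FPKM, a fragment count divided by transcript length and library total, allows levels to be compared between genes. On this scale, summed over transcripts and averaged over the 6 samples, the order was *Triobp* (26.1 ± 1.36, SD, n = 6), *Eps8l2* (23.5 ± 2.61), *Eps8* (6.41 ± 0.650), *Whrn* (6.16 ± 0.389), *Espn* (2.94 ± 0.490), *Grxcr2* (1.97 ± 0.576), *Ptprq* (1.26 ± 0.533), *Strc* (1.12 ± 0.158), *Adgrv1* (0.602 ± 0.292) and *Grxcr1* (0.293 ± 0.105). Only 2 neighbouring genes in this order lay fully apart, the lower gene being lower in all 6 samples with no overlap of the ranges. These were *Eps8l2* above *Eps8* and *Whrn* above *Espn*. *Strc* exceeded *Adgrv1* in 6 of 6 samples, yet their ranges overlapped (0.90 to 1.32 and 0.17 to 0.92 FPKM). The genes therefore fell into an upper tier of 2, a middle tier of *Eps8* and *Whrn*, and a lower tier of 6 in which no neighbours lay apart. In the tissue as a whole, *Triobp* ranked 3543 and *Grxcr1* 17777 of 51802 symbols by mean FPKM. When only the most abundant transcript of each gene was used, the number of neighbours lying apart was again 2, but the pairs were not the same. *Eps8l2* above *Eps8* stayed, while *Eps8* (3.26 to 4.87 FPKM) above *Grxcr2* (1.36 to 3.05 FPKM) took the place of *Whrn* above *Espn*. *Whrn* moved to place 5, below *Grxcr2* (means of 1.66 and 1.97 FPKM). *Espn* moved from place 5 to place 8 because its level is spread over many transcripts.

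**Figure D1:**
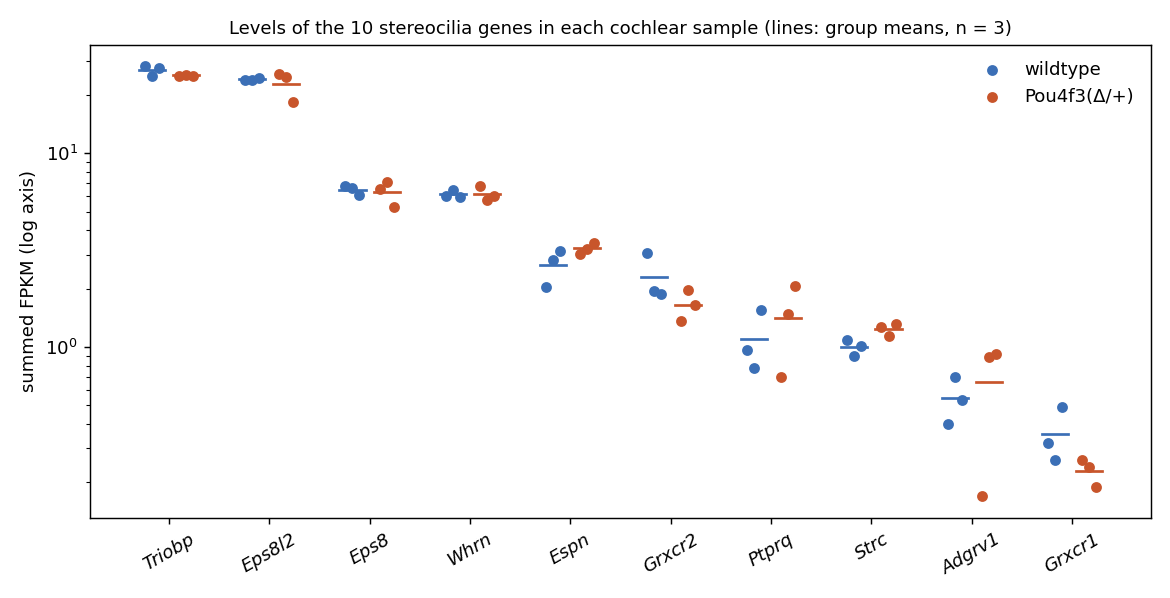
Summed FPKM (log axis) of the 10 genes in each of the 6 samples, with wildtype in blue, *Pou4f3(Δ/+)* in orange and lines at the group means (n = 3 each). *Triobp* and *Eps8l2* lie near 25 FPKM and *Grxcr1* below 0.50 FPKM, and only for *Strc* do the 3 *Pou4f3(Δ/+)* samples all lie above the 3 wildtype samples.

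*Espn* encodes espin, an actin-bundling protein that crosslinks the filaments of the stereociliary core. It lies on chromosome 4 (152120331 to 152152371, minus strand, ENSMUSG00000028943, coordinates here and below from GENCODE M21 on GRCm38). Its level was 2.04, 2.81 and 3.11 FPKM in wildtype replicates 3, 4 and 5 and 3.03, 3.22 and 3.45 FPKM in *Pou4f3(Δ/+)* replicates 1, 2 and 3. The wildtype samples spread widely, and wildtype replicate 5 lay inside the *Pou4f3(Δ/+)* range, so the groups overlapped by this sample alone. The group means were 2.65 ± 0.552 and 3.23 ± 0.210 FPKM (SD, n = 3), and the log2 fold change from counts was 0.29 (SE 0.20, edgeR adjusted p = 0.713).

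*Espn* has 20 listed transcripts, of which 13 had counts, and no transcript held over 25% of the FPKM in either group on average. Transcripts from the upstream start site held 44.2% ± 3.04 of this FPKM in wildtype and 41.8% ± 10.6 in *Pou4f3(Δ/+)* samples (SD, n = 3). The CpG-poor start sites 2 and 3 shown above held 3.25% and 0% in wildtype and 1.64% and 4.48% in *Pou4f3(Δ/+)* samples. The remainder, about 52% in each group, came from transcripts that start elsewhere in the gene. Among these was Espn-218, a non-coding processed transcript of 7 exons, with counts of 12.1, 15.8 and 18.5 in wildtype and 32.6, 24.2 and 29.0 in *Pou4f3(Δ/+)* samples. Every *Pou4f3(Δ/+)* sample lay above every wildtype sample for this transcript (log2 fold change 0.90, SE 0.37). It was the only 1 of the 26 transcripts of these genes tested with an unadjusted p under 0.05 (0.046), which compares with 4.14% of all 38347 transcripts, and its edgeR adjusted p was 0.999. No transcript of any gene had an adjusted p under 0.05 (0%). The coding form Espn-201, of 871 residues, had counts of 24.3, 36.7 and 42.5 in wildtype and 40.6, 40.3 and 47.0 in *Pou4f3(Δ/+)* samples, with overlapping groups. Espn-219, Espn-216 and Espn-213 held 17.96%, 17.8% and 12.2% of the FPKM in wildtype and 15.3%, 13.2% and 7.73% in *Pou4f3(Δ/+)* samples, each with fewer than 30 counts in every sample.

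*Triobp* encodes an actin-bundling protein whose long forms build the rootlets that anchor stereocilia in the cuticular plate, while its short form binds the guanine exchange factor TRIO and is made in many tissues. It lies on chromosome 15 (78947724 to 79005869, plus strand, ENSMUSG00000033088). The gene's level was 28.16, 25.10 and 27.46 FPKM in wildtype and 25.19, 25.36 and 25.19 FPKM in *Pou4f3(Δ/+)* samples. The *Pou4f3(Δ/+)* samples were nearly identical, and wildtype replicate 4 fell just under them, so the groups overlapped. The means were 26.9 ± 1.60 and 25.2 ± 0.098 FPKM. The log2 fold change was -0.10 (SE 0.07, edgeR adjusted p = 0.743), with a 95% confidence interval of 0.83 to 1.05 as a fold, the narrowest of the 9 genes tested. In CPM without TMM scaling, the 3 *Pou4f3(Δ/+)* samples lay below the 3 wildtype samples (66.8 to 67.6 against 68.1 to 74.7), an ordering that TMM scaling did not keep.

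The long forms made up little of this. Transcripts from the upstream start site, which include Triobp-204 and Triobp-203 (1968 residues), held 3.46% ± 1.32 of the FPKM in wildtype and 3.29% ± 0.350 in *Pou4f3(Δ/+)* samples (SD, n = 3). Their summed level was 0.77, 1.25 and 0.73 FPKM in wildtype and 0.78, 0.78 and 0.93 FPKM in *Pou4f3(Δ/+)* samples, so the groups overlapped. With starts taken from GENCODE M21, the CpG-rich downstream start site held the other 96.5% and 96.7%. By this division the rootlet-building forms were measured in the same range as *Strc* and *Ptprq*, and the place of *Triobp* at the head of the order rested on its short forms. The starts of Triobp-202 and Triobp-204 were taken from GENCODE M21, whose lengths for them differ from those counted, so their start sites are less certain. Triobp-202 is short by the length that its counts and FPKM imply (2553 bases, against 7030 for Triobp-204).

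The short-form counts were divided between Triobp-201 (627 residues) and Triobp-202. These held 36.8% and 56.2% of the FPKM in wildtype and 25.2% and 66.2% in *Pou4f3(Δ/+)* samples. Triobp-201 had counts of 891, 131 and 268 in wildtype and 127, 650 and 0.166 in *Pou4f3(Δ/+)* samples. Triobp-202 had 267, 707 and 872 in wildtype and 921, 283 and 846 in *Pou4f3(Δ/+)* samples. In both groups the transcripts traded places from sample to sample, wildtype replicate 3 and *Pou4f3(Δ/+)* replicate 2 being the samples with more of Triobp-201. Their sum ranged only from 839 to 1159. The deposited counts and FPKM of Triobp-202 imply a spliced length of 2553 bases, where GENCODE M21 lists a retained-intron model of 3980 bases, so the model that was counted is not that of M21 and its coding status is not given here. How much sequence the counted models share was not tested. Neither had an unadjusted p under 0.05 (Triobp-201 log2 fold change -0.62, SE 1.45, and Triobp-202 0.13, SE 0.56, edgeR adjusted p = 0.999 for both).

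**Figure D2:**
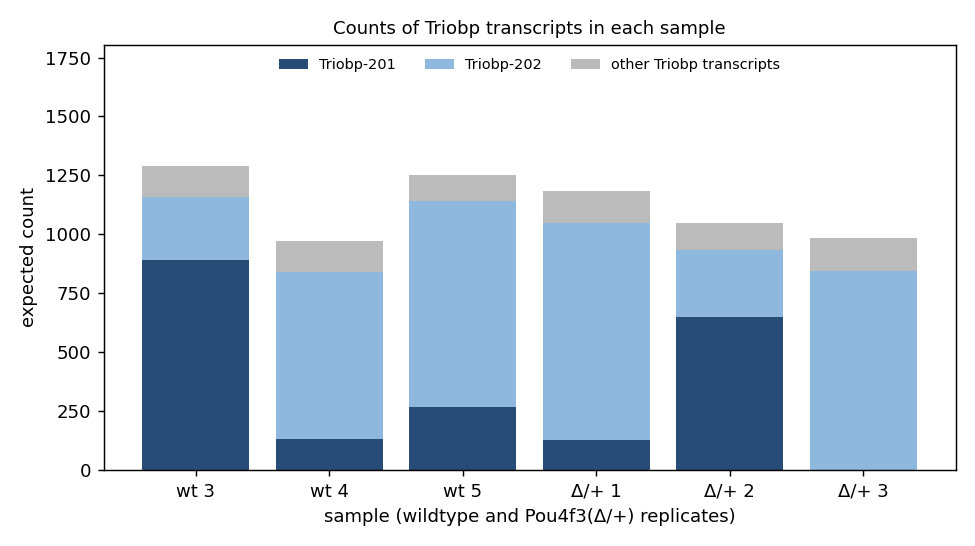
Expected counts of *Triobp* in each sample, stacked as Triobp-201, Triobp-202 and all other *Triobp* transcripts, for wildtype (wt) and *Pou4f3(Δ/+)* (Δ/+) replicates. The total stays between 974 and 1289 while the part of Triobp-201 ranges from 0.166 to 891 counts with high and low samples in both groups.

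*Eps8* and *Eps8l2* encode related actin regulators that localise to stereocilia tips, where EPS8 caps and bundles filaments and is required for row height. *Eps8* lies on chromosome 6 (137477245 to 137654876, minus strand, ENSMUSG00000015766) and measured 6.81, 6.60 and 6.07 FPKM in wildtype and 6.52, 7.14 and 5.29 FPKM in *Pou4f3(Δ/+)* samples. The wildtype range lay wholly inside the *Pou4f3(Δ/+)* range, and the log2 fold change was 0.04 (SE 0.13, edgeR adjusted p = 0.953). The protein forms Eps8-202 and Eps8-201, which have the same number of residues (821), held 59.8% and 27.8% of its FPKM in wildtype and 61.0% and 29.9% in *Pou4f3(Δ/+)* samples.

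*Eps8l2* lies on chromosome 7 (141338880 to 141363020, plus strand, ENSMUSG00000025504) and measured 23.78, 24.00 and 24.32 FPKM in wildtype and 25.65, 24.69 and 18.29 FPKM in *Pou4f3(Δ/+)* samples. The wildtype samples lay close together, and *Pou4f3(Δ/+)* replicates 1 and 2 lay above them while replicate 3 lay well below. The means were 24.0 ± 0.272 and 22.9 ± 4.0 FPKM, and the log2 fold change was -0.07 (SE 0.11, edgeR adjusted p = 0.892). Its coding transcript Eps8l2-201 held 53.4% of the FPKM in wildtype and 55.9% in *Pou4f3(Δ/+)* samples, and retained-intron and processed transcripts made up most of the rest. Of these, Eps8l2-206 held 13.6% and 14.1%, Eps8l2-211 14.5% and 6.11%, and Eps8l2-210 12.6% and 17.95%, in wildtype and *Pou4f3(Δ/+)* samples. Eps8l2-201 itself measured 13.22, 13.32 and 11.97 FPKM in wildtype and 15.89, 10.22 and 12.25 FPKM in *Pou4f3(Δ/+)* samples, with replicate 3 in the middle of its group. The gene overlaps a non-coding gene on the opposite strand (B230206H07Rik), and whether counting used strand is not given in the sources used here.

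*Eps8l2* exceeded *Eps8* within every sample. The log2 ratio of their FPKM was 1.80, 1.86 and 2.00 in wildtype and 1.98, 1.79 and 1.79 in *Pou4f3(Δ/+)* samples, a difference of -0.04 (two-sided exact permutation p = 0.5, adjusted p = 1 over the 3 ratios compared). With 3 samples against 3, no such test can go below 0.1.

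*Whrn* encodes whirlin, a PDZ scaffold found both at stereocilia tips, with myosin XVa and EPS8, and at the ankle links near the base. It lies on chromosome 4 (63414910 to 63495991, minus strand, ENSMUSG00000039137). Its level was 6.02, 6.43 and 5.96 FPKM in wildtype and 6.80, 5.72 and 6.02 FPKM in *Pou4f3(Δ/+)* samples. The wildtype samples lay inside the range of the *Pou4f3(Δ/+)* samples, and the log2 fold change was -0.03 (SE 0.11, edgeR adjusted p = 0.957), with a fold interval of 0.83 to 1.16.

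The full-length promoter of *Whrn* held 21 CG dinucleotides. Transcripts from it, which include the long coding form Whrn-206 (906 residues), held 60%, 50.2% and 40.8% of its FPKM in wildtype and 46.5%, 42.0% and 33.6% in *Pou4f3(Δ/+)* samples. The shares were on average lower in *Pou4f3(Δ/+)* samples, at 40.7% against 50.3%, but the groups overlapped, since wildtype replicate 5 lay below *Pou4f3(Δ/+)* replicates 1 and 2. Whrn-206 had counts of 177, 47.6 and 99.3 in wildtype and 87.4, 141 and 24.7 in *Pou4f3(Δ/+)* samples, and no whirlin transcript had an unadjusted p under 0.05. The non-coding Whrn-209, with 8.41, 51.7 and 110 counts in wildtype and 113, 77.8 and 78.2 in *Pou4f3(Δ/+)* samples, varied over a wider range in wildtype. Whrn-217 held 14.8% and 15.7% of the FPKM and Whrn-202 8.26% and 15.4%, in wildtype and *Pou4f3(Δ/+)* samples.

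*Adgrv1* encodes the very large adhesion receptor of the ankle links, which binds whirlin. It lies on chromosome 13 (81095068 to 81633154, minus strand, ENSMUSG00000069170). Its summed level was 0.40, 0.70 and 0.53 FPKM in wildtype and 0.17, 0.89 and 0.92 FPKM in *Pou4f3(Δ/+)* samples, from only 14 to 34 counts a sample. *Pou4f3(Δ/+)* samples held both the lowest and the highest values. The log2 fold change was 0.12 (SE 0.44, edgeR adjusted p = 0.957), and its interval of 0.55 to 2.16 as a fold was the widest among the 9 tested. The full-length transcript, Adgrv1-201 (19338 bases, 6298 residues), received 3.34, 0 and 11.7 counts in wildtype and 11.3, 4.94 and 11.2 in *Pou4f3(Δ/+)* samples, or at most 0.04 FPKM. The summed FPKM rested mainly on short forms. In wildtype the main one was Adgrv1-206 (318 residues), with 71.2% against 32.3% in *Pou4f3(Δ/+)* samples, where the non-coding Adgrv1-213 held most, 35.9% against 4.91% in wildtype. Adgrv1-210 held 3.07% in wildtype and 10.6% in *Pou4f3(Δ/+)* samples. Adgrv1-213 and Adgrv1-210 had at most 5.02 counts in any sample, so these shares rest on few counts. The log2 ratio of *Adgrv1* to *Whrn* was -3.91, -3.20 and -3.49 in wildtype and -5.32, -2.68 and -2.71 in *Pou4f3(Δ/+)* samples, a difference of -0.04 (exact permutation p = 1, adjusted p = 1).

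*Strc* encodes stereocilin, which forms the horizontal top connectors between outer hair cell stereocilia and their attachment to the tectorial membrane. It lies on chromosome 2 (121363728 to 121387168, minus strand, ENSMUSG00000033498). Its level was 1.09, 0.90 and 1.01 FPKM in wildtype and 1.27, 1.14 and 1.32 FPKM in *Pou4f3(Δ/+)* samples, from 74 to 115 counts a sample. All 3 *Pou4f3(Δ/+)* samples lay above all 3 wildtype samples, also in CPM and after TMM scaling. After TMM scaling it was the only 1 of the 9 genes tested whose groups lay apart, which compares with 6.07% of all genes for this direction and 6.59% for the other, where none of the 9 did. In CPM without TMM scaling, *Triobp* also lay apart, with the *Pou4f3(Δ/+)* samples lower. The means were 1.00 ± 0.0954 and 1.24 ± 0.0929 FPKM, and the log2 fold change was 0.25 (SE 0.17, unadjusted p = 0.181, edgeR adjusted p = 0.722), with a fold interval of 0.91 to 1.56. The coding transcript Strc-201 held all of the wildtype FPKM and 93.6% of that in *Pou4f3(Δ/+)* samples, where replicate 1 had 8.18 counts on another transcript. On Strc-201 alone the FPKM was 1.09, 0.90 and 1.01 in wildtype and 1.05, 1.12 and 1.32 in *Pou4f3(Δ/+)* samples, and the groups overlapped. *Strc* also overlaps *Ckmt1* on the opposite strand.

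*Ptprq* encodes a receptor-type phosphatase of the shaft connectors, near the stereociliary base. It lies on chromosome 10 (107517049 to 107720051, minus strand, ENSMUSG00000035916). It measured 0.96, 0.78 and 1.55 FPKM in wildtype and 0.70, 1.48 and 2.07 FPKM in *Pou4f3(Δ/+)* samples, the first of which was the lowest of all 6. The means were 1.10 ± 0.403 and 1.42 ± 0.687 FPKM, and the log2 fold change was 0.29 (SE 0.37, edgeR adjusted p = 0.843). The estimate was as large as that of *Espn*, but its SE was larger (0.37 against 0.20), and single libraries moved it. It was 0.035 without *Pou4f3(Δ/+)* replicate 3, 0.071 without wildtype replicate 4 and 0.69 without wildtype replicate 5. The coding transcript Ptprq-201, of 2300 residues, held 88.8% and 81.6% of the FPKM, and the non-coding Ptprq-202 held 11.2% and 18.4%.

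*Grxcr1* and *Grxcr2* encode cysteine-rich, glutaredoxin-like proteins needed for normal stereocilia dimensions and bundle shape. Each has a single listed transcript, so no division between forms affects them. The counts and FPKM of Grxcr2-201 imply a length of 1121 bases against 1998 in GENCODE M21, so its level is that of the model the authors counted. *Grxcr2*, on chromosome 18 (ENSMUSG00000073574), measured 3.05, 1.94 and 1.87 FPKM in wildtype and 1.36, 1.96 and 1.64 FPKM in *Pou4f3(Δ/+)* samples. Wildtype replicate 3 was high, and *Pou4f3(Δ/+)* replicate 2 lay above the other wildtype samples. The means were 2.29 ± 0.662 and 1.65 ± 0.300 FPKM. The log2 fold change of -0.47 was the lowest of the 9 (SE 0.31, edgeR adjusted p = 0.706), with a fold interval of 0.44 to 1.17.

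*Grxcr1*, on chromosome 5 (68031835 to 68166398, plus strand, ENSMUSG00000068082), had 6, 4 and 9 counts in wildtype and 5, 4 and 3 in *Pou4f3(Δ/+)* samples. This was the only 1 of the 10 genes below the filter on low counts. Its level was 0.32, 0.26 and 0.49 FPKM in wildtype and 0.26, 0.24 and 0.19 FPKM in *Pou4f3(Δ/+)* samples, with wildtype replicate 4 and *Pou4f3(Δ/+)* replicate 1 at the same value. In the fit without a filter the log2 fold change was -0.61 (SE 0.71, edgeR adjusted p = 0.799). What size of difference could be detected at this depth was not tested. The log2 ratio of *Grxcr2* to *Grxcr1* was 2.69 ± 0.68 in wildtype and 2.84 ± 0.40 in *Pou4f3(Δ/+)* samples (SD, n = 3), a difference of 0.15 (exact permutation p = 0.8, adjusted p = 1).

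Across the 9 genes tested, 5 log2 fold changes were above 0 and 4 below, with a median of 0.04 beside -0.003 over all genes. None had an unadjusted p under 0.05 by edgeR, and none had an adjusted p under 0.05 by limma or, for the 7 genes that were given one, by DESeq2, which gave none for *Grxcr2* and *Adgrv1*. The intervals differed in width. In the fit to all 6 samples, those of *Triobp*, *Whrn*, *Eps8* and *Eps8l2* held no fold under 0.80. Those of *Strc* and *Espn* held none under 0.90, whereas for *Grxcr2*, *Adgrv1* and *Ptprq* they included folds of 0.70 or lower. These bounds hold for the fit to all 6 samples. Without *Pou4f3(Δ/+)* replicates 1 and 2, which leaves 1 sample in that group and so widens the intervals of *Triobp*, *Whrn* and *Eps8*, the log2 fold changes were -0.33 for *Eps8l2*, -0.22 for *Eps8*, -0.13 for *Whrn* and -0.12 for *Triobp*, and the intervals reached down to folds of 0.67, 0.69, 0.71 and 0.77. In the fit to all 6 samples, the intervals of the link proteins *Adgrv1* and *Ptprq* reached furthest upward, to folds of 2.16 and 2.19.

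**Figure D3:**
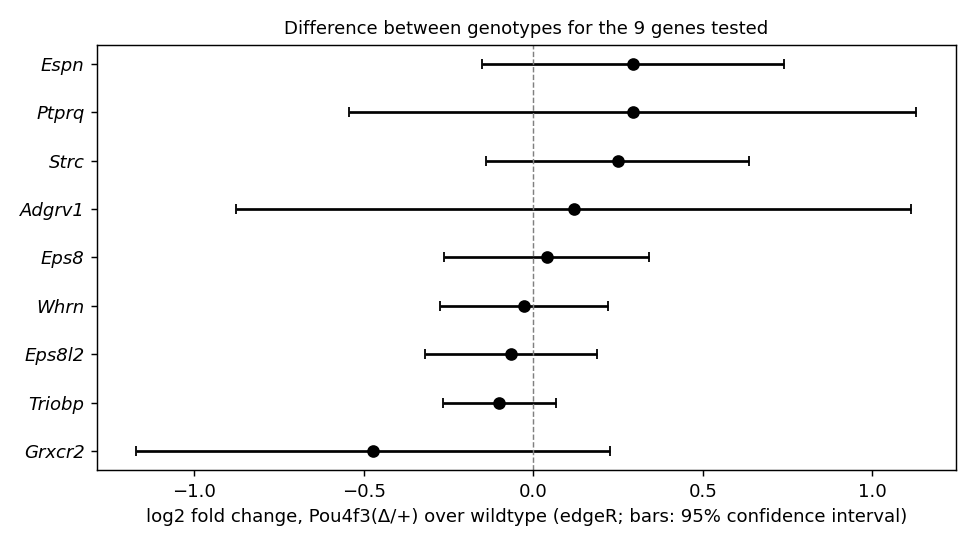
Log2 fold change of *Pou4f3(Δ/+)* over wildtype for the 9 genes tested (points, edgeR) with 95% confidence intervals (bars). All 9 intervals include 0, from the narrow one of *Triobp* (-0.27 to 0.07) to the wide one of *Adgrv1* (-0.88 to 1.11).

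In the deposited annotation, 7 of the 10 carried a term naming stereocilia, as did 67 genes in all. The term sensory perception of sound was given to *Strc*, *Espn*, *Whrn*, *Grxcr1* and *Grxcr2*, and actin filament binding to *Espn*, *Eps8l2* and *Triobp*. The genes lie on 9 chromosomes, only *Espn* and *Whrn* sharing 1. They differed in how much of their signal was coding. Protein-coding transcripts held 97.7% to 99.8% of the counts of *Eps8* and 82.5% to 100% of those of *Ptprq*, but 55.5% to 71.6% for *Espn* and 43.2% to 72.2% for *Whrn*.

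The pattern over the 6 samples was compared with 39 hair bundle and hair cell genes, by the root mean square difference of centred log2 CPM. The gene most like *Espn* was *Tmc1*, a subunit of the mechanotransduction channel, at 0.040, where the median over the 39 was 0.310. *Whrn* was closest to *Tprn*, which encodes taperin of the stereociliary base, at 0.032 (median 0.196). *Eps8* was closest to *Actb* (0.060) and *Triobp* to *Capzb* (0.060). The root mean square deviation of *Triobp* from its own mean was 0.062, so *Capzb* was about as far from it as a flat pattern. For *Grxcr2*, *Adgrv1* and *Ptprq* the closest were the hair cell genes *Gfi1* (0.239), *Chrna9* (0.278) and *Chrna10* (0.313), distances larger than those of the other 7 genes. *Grxcr2*, *Adgrv1* and *Ptprq* also deviated most from their own means (0.337, 0.488 and 0.532). For *Strc*, *Eps8l2* and *Grxcr1* the closest were *Ush1c* (0.112), *Tprn* (0.102) and *Fscn1* (0.178), beside deviations from their own means of 0.164, 0.130 and 0.323. These values describe 6 samples that share a depth and a tissue composition with every gene compared.

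The other genes of the bundle were taken as lists by function. Of 8 genes of the actin core and its crosslinkers, 1 was higher and 1 lower at an unadjusted p under 0.05, beside 600 higher and 709 lower of all 17136 genes (7.64%), and none passed adjustment. *Pls1*, which encodes the crosslinker plastin 1, measured 6.71, 7.72 and 6.93 FPKM in wildtype and 8.51, 9.84 and 8.98 FPKM in *Pou4f3(Δ/+)* samples, without overlap (log2 fold change 0.35, SE 0.10, unadjusted p = 0.00703, edgeR adjusted p = 0.643). *Fscn1*, encoding the crosslinker fascin 1, measured 8.26, 8.68 and 12.25 FPKM in wildtype and 7.63, 7.65 and 7.58 FPKM in *Pou4f3(Δ/+)* samples, with a single high wildtype sample (log2 fold change -0.39, SE 0.16). Its groups lay apart in FPKM but overlapped after TMM scaling. The cytoplasmic actins, *Actb* and *Actg1*, were the most abundant of the list and are made in all cells. *Actb* ran from 1877 to 2304 FPKM over both groups, while *Actg1* was 795 to 870 FPKM in wildtype and 623 to 773 FPKM in *Pou4f3(Δ/+)* samples (log2 fold change -0.24, SE 0.11), without overlap.

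Of the genes of the base, taper and rootlet, 5 of 6 were tested and 1 was higher at an unadjusted p under 0.05, beside 7.64% of all genes in either direction. This was *Ripor2* (listed as Fam65b), whose product organises stereocilia at the base and is also made by blood leukocytes. It measured 23.86, 20.67 and 20.98 FPKM in wildtype and 30.34, 36.12 and 22.36 FPKM in *Pou4f3(Δ/+)* samples, high in replicates 1 and 2 (log2 fold change 0.43, SE 0.15, edgeR adjusted p = 0.643). These samples had the highest B cell markers by mean log2 CPM, but wildtype replicate 4, with the highest summed B cell CPM, had the lowest value of *Ripor2*. The part of B cells in this value was not tested. *Rdx*, which encodes the membrane-to-actin linker radixin, was 49.16, 52.05 and 53.28 FPKM in wildtype and 54.26, 54.00 and 54.50 FPKM in *Pou4f3(Δ/+)* samples, a non-overlapping but small difference (log2 fold change 0.07). *Elmod1* was at 0.48 (SE 0.28).

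None of the 8 tip and length regulators had an unadjusted p under 0.05, and their median log2 fold change was 0.05. *Capzb*, a subunit of the capping protein, stood at -0.03, *Gnai3*, an inhibitory G protein subunit that acts with GPSM2 at the tips, at 0.14 and *Gpsm2* at 0.29 (SE 0.13, edgeR adjusted p = 0.643). Of the 8 genes of the links and of Usher syndrome, 7 were tested, and none had an unadjusted p under 0.05 (median 0.08). *Vezt*, encoding the ankle link protein vezatin, stood at 0.03 and *Ush1c*, encoding harmonin, at 0.11. *Clrn1* stood at -0.35 (SE 0.22). *Pdzd7*, a scaffold that works with whirlin at the ankle links, was 2.37, 2.22 and 2.73 FPKM in wildtype and 2.23, 2.00 and 2.20 FPKM in *Pou4f3(Δ/+)* samples, with a log2 fold change of -0.26 (SE 0.17). Its groups lay apart after TMM scaling but overlapped in FPKM.

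Beyond the 10 genes, 60 others carried a stereocilia term and 55 were tested. Of these, 2 were higher and 1 lower at an unadjusted p under 0.05, or 5.45% beside 7.64% of all genes. The groups lay apart for 3 higher and 3 lower genes of the 55, beside 6.07% and 6.59% of all genes. Of the 55, 26 log2 fold changes were above 0 and 29 below, and the median was -0.007. *Cecr2*, a chromatin remodelling factor, averaged 5.26 ± 0.746 FPKM in wildtype samples and 8.64 ± 1.35 FPKM in *Pou4f3(Δ/+)* samples (SD, n = 3, log2 fold change 0.84, SE 0.14, edgeR adjusted p = 0.643). *Ttc8*, a Bardet-Biedl syndrome gene of the primary cilium, measured 8.64, 7.97 and 9.77 FPKM in wildtype and 5.30, 5.20 and 6.26 FPKM in *Pou4f3(Δ/+)* samples (log2 fold change -0.53, SE 0.16). *Ceacam16*, a tectorial membrane glycoprotein, was higher by 0.25 (SE 0.09). For these 3 genes, and for *Rdx*, *Pdzd7* and *Elmod3*, the groups did not overlap after TMM scaling. *Rhoc* and *Atp8b1* stood at -0.20 and -0.26, with overlapping groups. Some genes, such as *Rdx* and *Pdzd7*, stand in this list and in a list by function.

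**Figure D4:**
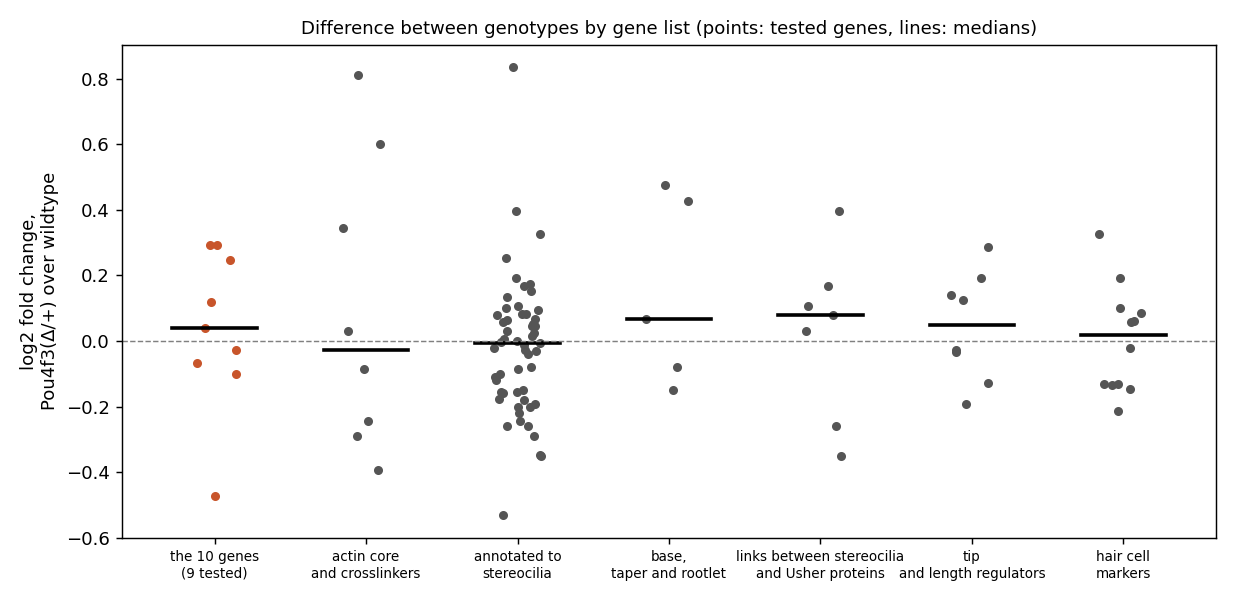
Log2 fold change of *Pou4f3(Δ/+)* over wildtype for each tested gene (points) of the 10 genes described here, 5 lists of other stereocilia genes and the hair cell markers, with lines at the medians. Every median lies between -0.03 and 0.08, and points reach 0.84 (*Cecr2*) and -0.53 (*Ttc8*).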

How the data were processed

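For each of 6 bulk cochlear RNA samples (3 wildtype, 3 *Pou4f3(Δ/+)*), the authors deposited expected counts per transcript, estimates that can be fractional, without normalization. They also deposited FPKM per transcript, scaled to length and to the counted fragments of the sample, and a transcript length, used here only to match the annotation. The submitters' processing notes name DESeq2 and the build mm8. The aligner and counting program are not given in the sources used here. The files hold no coordinates, and the listed length equalled the GENCODE M21 genomic span for 88 of the 93 transcripts of the 10 genes, so M21 (GRCm38) coordinates were used. The length implied by count and FPKM lay within 2% of the M21 spliced length for 34 of 37 transcripts with at least 10 counts in a sample. The exceptions were Triobp-202, Triobp-204 and Grxcr2-201, so their counted models may differ from M21.

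Counts were summed over the transcripts of a symbol and rounded. They were tested with edgeR 4.0.16 in R 4.3.3: filterByExpr (minimum count 10, minimum total 15), scaling by TMM, and a quasi-likelihood test between the genotypes in which all 6 samples entered and no covariate was used. P-values were adjusted over all genes (Benjamini-Hochberg). Transcripts were tested in the same way. The SE of a log2 fold change was obtained from its F statistic (the change over the root of F). Ratios were tested by exact permutation (SciPy 1.17.1, Python 3.11.15). The edgeR fit, DESeq2 and limma on log2 CPM were run on simulated data for genes and for transcripts, and the other alternatives were not.

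The 10 genes, the gene lists and the markers were chosen with earlier results of these data known. The genes named are the 10, their transcripts holding at least 10% of a group's FPKM, from each list by function the 2 most abundant and the 2 with the smallest p, and from the annotated list the 5 with the smallest p. Adgrv1-201, Triobp-203, Triobp-204 and *Elmod3*, the start-site shares, the promoter letters and the coding share of counts were added after the values were seen. Alternatives were DESeq2 1.42.0, its size factors in edgeR, quantile normalization and log2(FPKM + 0.5, 0.1 or 1) with limma 3.58.1, no filter, a mean FPKM of at least 5, scaling to the 12 hair cell markers, samples left out, and an adjusted p threshold of 0.1, the last chosen after seeing the data. A count per kilobase was worth 0.0565 to 0.0700 FPKM, and floors cover counting error only.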

Additional observations from a re-analysis of the deposited data

How the results depend on the processing

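None of the 9 genes tested passed an adjusted p of 0.05 in the 139 gene-level alternatives, where the smallest was 0.460 and DESeq2 gave none for *Grxcr2* and *Adgrv1*. *Grxcr1* was fitted only without a filter. No transcript of the 10 genes passed with DESeq2, without a filter or with a sample left out, the alternatives run for transcripts. The direction held in 124 of them: for *Strc*, *Espn*, *Grxcr2* and *Ptprq* in all that were run. It turned in 15, for genes near 0. *Whrn* became 0.0068, 0.0071 and 0.0065 on log2(FPKM + 0.5, 0.1 and 1), and *Eps8* became -0.045, -0.048 and -0.041. Scaling to the summed hair cell markers, most of which is *Calb2*, moved the median of all genes to 0.13. It moved *Whrn* to 0.11, *Eps8l2* to 0.083 and *Triobp* to 0.038, so all 3 stayed below that median. Leaving out *Pou4f3(Δ/+)* replicates 1 and 2 leaves 1 sample in that group, assumed to vary like the wildtype samples. There *Eps8* became -0.22, *Eps8l2* -0.33 (edgeR unadjusted p = 0.0144, adjusted p = 0.9998), *Ptprq* 0.71 and *Adgrv1* 0.56. With each sample left out in turn, *Whrn* ranged from -0.082 to 0.028, *Eps8* from -0.10 to 0.16, *Eps8l2* from -0.17 to 0.055 and *Adgrv1* from -0.15 to 0.46. *Strc* ranged from 0.18 to 0.32, *Espn* from 0.15 (without wildtype replicate 3) to 0.45, *Grxcr2* from -0.62 to -0.20 (without wildtype replicate 3) and *Ptprq* from 0.035 (without *Pou4f3(Δ/+)* replicate 3) to 0.69 (without wildtype replicate 5). The filter at a mean FPKM of 5 kept 4 of the 10 genes.

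Over all genes, 0 passed in the edgeR fit, 64 with DESeq2, 1 with quantile normalization, 1 on log2(FPKM + 0.1), 9 without a filter, 1 with hair cell scaling and 6 without *Pou4f3(Δ/+)* replicates 1 and 2. With a sample left out the number ranged from 0 to 193, which was reached without *Pou4f3(Δ/+)* replicate 3, while leaving out wildtype replicate 4 gave 3. The cause was not tested. With a sample left out, the difference in the log2 ratio of *Adgrv1* to *Whrn* ranged from -0.48 (without *Pou4f3(Δ/+)* replicate 2) to 0.84 (without replicate 1), that of *Grxcr2* to *Grxcr1* from -0.23 (without wildtype replicate 5) to 0.43, and that of *Eps8l2* to *Eps8* from -0.10 to 0.019, so the direction of all 3 turned. The number of neighbours apart was 2 in both orders, though the pairs were not the same. No paired analysis was run, since the replicate numbers are not said to mark pairs. Depth limits *Grxcr1* and *Adgrv1* most, with 3 to 34 counts a sample.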
